A study of Homo sapiens with 11 samples.

Results

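The proteasome genes of HEK293T cells were examined across 4 groups of RNA-seq libraries. The genes were chosen by name, as protein-coding genes of the deposited count table whose symbol begins with PSMA to PSMG and a number, and 49 of 58735 listed genes matched. One match, PSMC3IP, encodes a cofactor of meiotic recombination and no proteasome protein, so the counts given here run over the other 48 genes. These were divided into 19 core genes (PSMA and PSMB), 20 regulator genes (PSMC and PSMD), 5 activator or inhibitor genes (PSME and PSMF) and 4 assembly factor genes (PSMG).

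HEK293T is an established line derived from human embryonic kidney. Cells received Lipofectamine RNAiMAX with 50 nM siRNA to NAE1 (siNAE1, n = 3), 70 nM siRNA to UBE2M (siUBE2M, n = 3) or 60 nM siRNA to URM1 (siURM1, n = 2), and poly(A) RNA was taken after 48 h. The labels call the comparison group control siRNA (control, n = 3) without a dose, and the study's methods name a non-targeting siRNA as the negative control of its knockdowns. A supplement of the study abbreviates the same group as HKWT. The siRNA doses differed between the groups, each gene was targeted by 1 siRNA product, and knockdown and dose cannot be told apart. The labels give biological replicate numbers and nothing further on separate cultures, so p-values measure the spread between these libraries.

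The proteasome is the protease of the ubiquitin system. Its barrel-shaped core particle is built from alpha subunits (PSMA), which form the outer rings and the gate, and beta subunits (PSMB), which form the inner rings and carry the active sites. A regulatory particle caps the core: its base holds a ring of ATPases (PSMC) that unfold substrates, and its lid and ubiquitin receptors (PSMD) bind and deubiquitinate them. Other caps (PSME) and an inhibitor (PSMF1) compete for the same face of the core, and the PSMG proteins guide its assembly. NAE1 and UBE2M act in the conjugation of NEDD8, which activates the cullin ubiquitin ligases that mark many proteins for this protease, and the study tested both as enzymes of the ubiquitin-like protein URM1. When proteasome activity is short, the transcription factor NFE2L1 is known to raise proteasome genes through antioxidant response elements in their promoters.

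Total counts per library ranged from 11733163 to 16321391. Each siRNA lowered its target, with a log2 fold change of -1.36 ± 0.08 for NAE1, -3.98 ± 0.08 for UBE2M and -1.80 ± 0.10 for URM1. HEK293T markers NEFL, NEFM, VIM, KRT8, KRT18 and PAX2 were present in all libraries, at levels that differed between groups. NEFM stood at 73.9 to 81.1 CPM in control, 169.8 to 183 in siNAE1, 69.2 to 75.9 in siUBE2M and 166 to 190.1 in siURM1. VIM stood at 164 to 182, 216 to 245, 299.5 to 378 and 271 to 312 CPM, and PAX2 at 9.41 to 11.1, 9.30 to 9.87, 4.34 to 6.43 and 18.3 to 19.7 CPM, in the same order of groups. Of the markers of other cell types, PTPRC, ALB, PECAM1 and HBB lay at or under 0.632 CPM in every library and COL1A1, a fibroblast marker, was present at 19.2 to 23.1 CPM in control, 16.7 to 21.0 in siNAE1, 24.7 to 29.4 in siUBE2M, above every control library, and 21.5 to 23.5 in siURM1; the part of other cells in the results was not tested. CPM stands throughout for a library's counts scaled to 1000000 after TMM normalization. The proteasome genes together took 0.508% to 0.529% of the counts in the control libraries, 0.560% to 0.590% in siNAE1, 0.472% to 0.507% in siUBE2M and 0.506% to 0.524% in siURM1.

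The promoters were read first for letters that known regulators bind. RefSeq promoters on GRCh38.p14, each from 250 bases before to 50 bases after a start site, were matched for 42 of the 48 genes; PSMA7, PSMB1, PSMB6, PSMB7, PSMD4 and PSMG3 were not matched. The core of the antioxidant response element, TGACNNNGC on either strand, lay in the promoters of 15 of 42 genes (35.7%), against 16.1% of all 27305 genes with a listed promoter. The ETS letters CCGGAAG were also in 15 of 42 (35.7%), against 12.2% of all genes. CCAAT, the box bound by NF-Y, was in 20 of 42 (47.6%, all genes 39.7%), and the AP-1 letters TGANTCA were in 3 of 42 (7.14%, all genes 9.37%). The AP-1 letters may overlap the antioxidant core. A heat shock element (GAA, TTC and GAA, each a pair of bases apart) was in none of the 42, against 0.608% of all genes. These shares are descriptions without a test, and a match is not evidence of binding.

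Printed here are the 150 bases just before the start site for 4 genes that rose in every knockdown and for PSMD14, which fell in every knockdown, because they are among the members on which the results turn. Letters run 5′ to 3′ on the gene's strand and capitals mark any of the motifs above. The windows are PSMA4 (+ strand, chr15:78540636-78540785, the third start listed), PSMB3 (+ strand, chr17:38752591-38752740), PSMD3 (+ strand, chr17:39980657-39980806), PSMD6 (- strand, chr3:64023495-64023644) and PSMD14 (+ strand, chr2:161308275-161308424).
PSMA4: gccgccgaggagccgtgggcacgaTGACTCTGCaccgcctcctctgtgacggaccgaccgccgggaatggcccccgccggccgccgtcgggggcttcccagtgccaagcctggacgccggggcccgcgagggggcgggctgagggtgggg
PSMB3: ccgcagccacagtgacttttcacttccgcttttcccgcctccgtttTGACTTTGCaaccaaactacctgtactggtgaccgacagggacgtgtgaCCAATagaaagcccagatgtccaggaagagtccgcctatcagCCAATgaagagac
PSMD3: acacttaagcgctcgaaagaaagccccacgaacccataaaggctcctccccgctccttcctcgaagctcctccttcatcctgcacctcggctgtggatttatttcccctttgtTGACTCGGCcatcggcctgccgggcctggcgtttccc
PSMD6: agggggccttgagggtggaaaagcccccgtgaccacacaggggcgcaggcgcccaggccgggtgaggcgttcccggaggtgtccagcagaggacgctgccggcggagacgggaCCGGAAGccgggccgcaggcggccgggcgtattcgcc
PSMD14: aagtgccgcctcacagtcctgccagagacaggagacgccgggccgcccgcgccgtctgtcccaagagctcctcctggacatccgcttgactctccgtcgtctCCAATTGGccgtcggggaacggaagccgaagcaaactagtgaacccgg
PSMA4, PSMB3 and PSMD3 hold the antioxidant core here, with its first base at position -126, -104 and -37, where -1 is the base before the start site. Of the 10 genes called higher in every knockdown, 9 had a matched promoter and these 3 held the core, close to the 15 of 42 over all members. The share of all genes called the same way in every knockdown is not given here, and the comparisons share their control libraries. Of the 3 genes called lower in every knockdown, 2 had a matched promoter and 1, PSMG1, held the core. Whether the core bears on the changes was not tested. PSMB3 also holds CCAAT boxes at -55 and -13. The PSMD6 window holds the ETS letters at -37. PSMD14 holds a CCAAT box at -48 that overlaps one on the other strand at -45, and an ETS match that begins at -4 and runs past the start site is not marked.

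Levels in control cells set the scale for what follows and were compared between genes per length, as FPKM. PSMA7, an alpha subunit, was the highest at 125 ± 3.89 FPKM (mean ± SD, n = 3), followed by PSMB4, a beta subunit, at 118 ± 7.53. PSMD4, a ubiquitin receptor, stood at 96.5 ± 4.82, and the 3 catalytic beta subunits PSMB7, PSMB5 and PSMB6 stood at 96.3 ± 4.33, 85.1 ± 3.16 and 83.7 ± 1.95. The libraries of PSMA7 and PSMB4 overlapped, as did those of PSMD4 and PSMB7 and those of PSMB5 and PSMB6. In the whole order, 31 of 47 neighbouring pairs overlapped, so most neighbours did not differ beyond their spread. In mean control CPM, which takes no account of length, PSMD4 (295), PSMB4 (258) and PSME3 (229) stood above PSMA7 (221). The order thus depends on the gene lengths behind the FPKM. The medians of the classes were 27.2 FPKM for the core, 24.3 for the regulator, 17.7 for activators and inhibitor and 24.6 for assembly factors. The core median runs over all 19 core genes, with PSMA8, PSMB8, PSMB9, PSMB10 and PSMB11 at 0.478 FPKM or lower. Most of the other core genes stood above it.

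Core subunits are built in equal numbers into each particle, yet 11 of the 14 constitutive core genes stood above 20 FPKM and PSMA1, PSMA2 and PSMA6 stood far lower, at 6.94 ± 0.890, 1.11 ± 0.192 and 0.469 ± 0.0320. In GENCODE v44 these genes share 26.7%, 17.2% and 14.1% of their exon bases with another protein-coding gene on the same strand. PSMB10 shares 39.4% and PSMD9 14.9% in the same way, and they stood at 0.478 ± 0.405 and 1.64 ± 0.0891 FPKM. How fragments in shared exons were assigned is not given in the sources used here, and the part of this in the levels was not tested, so the levels of these 5 genes are uncertain. PSMD5, a chaperone of the base, was low at 0.340 ± 0.0911 FPKM without such a shared exon.

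The immunoproteasome subunits, which replace the catalytic ones in immune cells and after interferon, had few counts, and the level of PSMB10 is uncertain as said above. PSMB8 had 0 to 2 counts per library, PSMB9 0 to 11 and PSMB10 5 to 30. PSMA8, the testis-specific alpha subunit, had 0 to 3 counts and PSMB11, the thymus-specific beta subunit, 0 to 1. PSMA8, PSMB8 and PSMB11 stayed at or below the floor of 3 counts in every library and failed the filter on low counts, so 45 of 48 genes were tested.

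**Figure D1:**
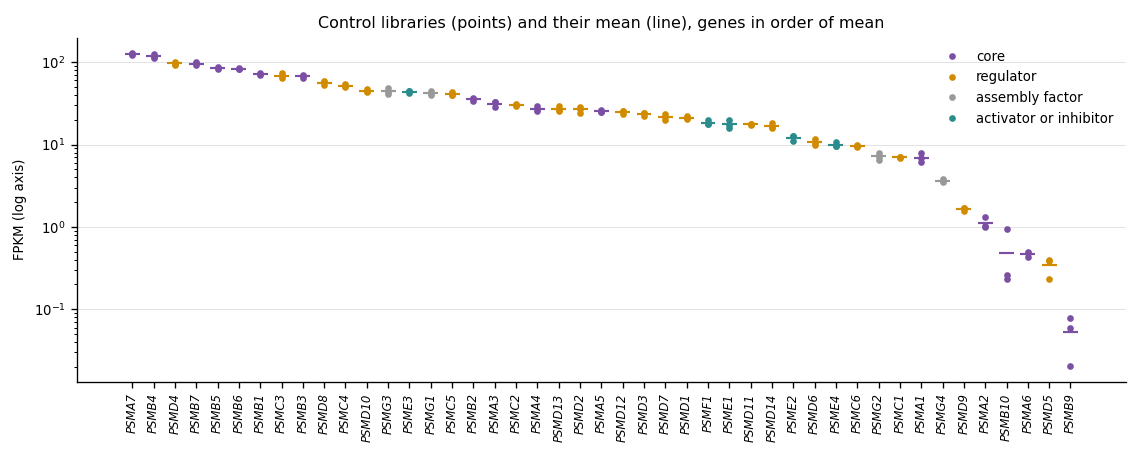
FPKM in each of the 3 control libraries (points, log axis) and their mean (line) for the 45 tested proteasome genes in order of the mean, colored by class. The levels run from 125 FPKM for PSMA7 to 0.0526 for PSMB9, with PSMA1, PSMA2 and PSMA6 below the other constitutive core genes.

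All 6 comparisons between the 4 groups were made in one edgeR quasi-likelihood fit over 18368 genes. A gene was called when its Benjamini-Hochberg adjusted p was under 0.05, and only called genes are said to have risen or fallen. Fold changes are log2 values with their standard error, and those against the control share the same 3 control libraries. A lack of overlap with the control was common. Of all genes tested, 29.8% in siNAE1, 26.8% in siUBE2M and 29.8% in siURM1 had every library above the control. Those with every library below it were 29.7%, 26.9% and 31.0%.

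In siNAE1, more proteasome genes rose than fell: 26 of 45 were called higher than the control and 4 lower, where 27.6% of all genes tested were called higher and 27.1% lower. The median log2 fold change of the 45 was 0.30, against 0.00 over all genes. Most changes were small, and 1 gene, PSMD5, passed an absolute log2 fold change of 1 as well, where 13.9% of all genes did. The core had 10 of 16 higher and 1 lower, the regulator 11 of 20 higher and 2 lower, the activators and inhibitor 4 of 5 higher, and the assembly factors 1 of 4 higher and 1 lower. Summed over the 45 tested genes, CPM came to 6052 ± 290 (SD, n = 3), 123% of the control mean of 4928 ± 150 (n = 3). When libraries were scaled by their totals, with no scaling factors, the median of all genes moved to -0.13 and that of the 45 to 0.18, with 22 called higher and 7 lower, and the calls of PSMA5, PSMC2, PSMD8 and PSMG4 were lost.

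In siUBE2M the calls went in both directions, at shares only somewhat above those over all genes. There were 14 called higher (31.1%) and 13 lower (28.9%), where 22.7% and 22.6% of all genes were, and the median of the 45 was 0.06, against 0.01 over all genes. Past the fold threshold was 1 gene (7.11% of all genes), PSMB9, which has few counts, passed the filter through the siUBE2M and siURM1 libraries where it is high, and is not read as a result. Core genes were 5 higher and 2 lower of 16, regulator genes 5 higher and 7 lower of 20, activators and inhibitor 3 higher and 1 lower of 5, and assembly factors 1 higher and 3 lower of 4. The 14 higher genes and the 5 of the core include PSMB9. Of the 14 constitutive core genes, 4 were higher and 2 lower. The summed CPM was 4839 ± 256 (n = 3), 98.2% of the control mean. Scaled by library totals, 12 were called higher and 17 lower and the median was -0.0028, with that of all genes at -0.05, and the calls of PSMA1 and PSMF1 were lost.

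In siURM1, 17 of 45 were called higher and 10 lower, where 20.8% of all genes were called in each direction. The median was 0.11, against -0.02 over all genes. PSMA7 and PSMD5 passed the fold threshold, where 7.62% of all genes did. The core had 6 higher and 1 lower of 16, the regulator 7 higher and 7 lower of 20, the activators and inhibitor 3 higher of 5, and the assembly factors 1 higher and 2 lower of 4. The summed CPM was 5245 ± 126 (n = 2), 106% of the control mean. Scaled by library totals, 12 were called in each direction and the median was 0.02, with that of all genes at -0.11, and the calls of PSMB1, PSMB4, PSMD11, PSME3 and PSME4 were lost.

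The calls differed in how far they rested on single libraries. In siNAE1, 28 of 30 calls held in every fit that left out 1 library. The PSMD5 call was lost without control replicate 1 (log2 fold change -1.23), control replicate 3 (-1.22) or siNAE1 replicate 3 (-1.19), and that of PSMG4 without control replicate 2 or 3, siNAE1 replicate 1 or 3, siUBE2M replicate 1 or either siURM1 library (0.15 to 0.21) and in every other alternative except the one with replicate numbers as a term, DESeq2 (adjusted p = 0.1) among them. In siUBE2M, 20 of 27 held, with PSMB9 among those lost. Without siUBE2M replicate 3 the median fell to -0.07 and there were 16 called lower, and without siUBE2M replicate 2 it was 0.11. In siURM1, with 2 libraries, 14 of 27 held, and a lone siURM1 library was assumed to vary like the other groups. Without siURM1 replicate 1 there were 15 called higher and 6 lower, without siURM1 replicate 2 there were 12 and 6, and without control replicate 2 there were 16 and 6.

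**Figure D2:**
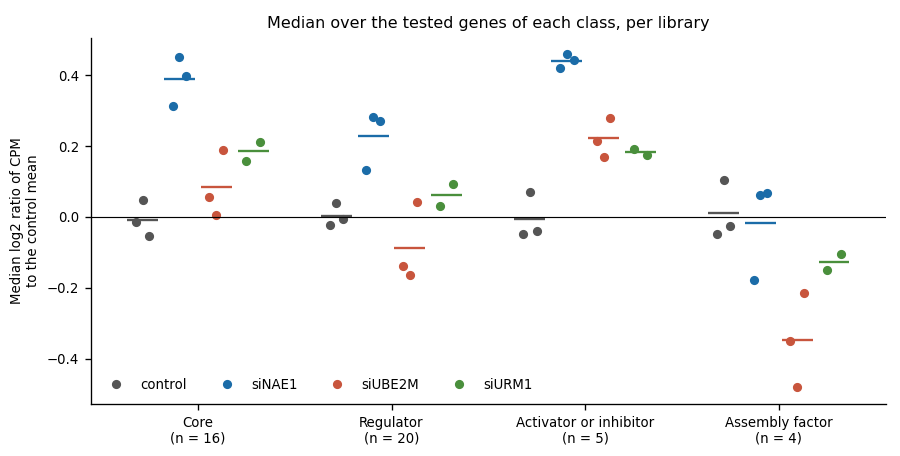
For each library (points) and group (line at the mean), the median over the tested genes of a class of the log2 ratio of CPM to the control mean. Core medians were 0.31 to 0.45 in siNAE1 and 0.16 to 0.21 in siURM1, above the control libraries at -0.05 to 0.05, and in siUBE2M the assembly factor medians were -0.48 to -0.21.

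Among the alpha subunits the genes moved in opposite directions. PSMA7 fell in every knockdown. PSMA7 had 215, 226 and 222 CPM in the control libraries, 181, 194 and 194 in siNAE1, 149, 137 and 154 in siUBE2M and 103 and 105 in siURM1. No knockdown library reached the lowest control library, and the order from control through siNAE1 and siUBE2M to siURM1 had no overlap between groups. The log2 fold change was -0.22 ± 0.06 in siNAE1 (adjusted p = 0.0027), -0.59 ± 0.06 in siUBE2M (1.8e-09) and -1.08 ± 0.07 in siURM1 (1.1e-13). Each step between knockdowns was called too, with siNAE1 above siUBE2M by 0.37 ± 0.06 and siUBE2M above siURM1 by 0.49 ± 0.07.

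PSMA1 and PSMA4, alpha subunits as well, went the other way. The control libraries held 23.1, 26.0 and 20.2 CPM of PSMA1, those of siNAE1 35.0, 39.6 and 45.3, those of siUBE2M 29.5, 24.3 and 30.1 and those of siURM1 29.6 and 36.2. The siNAE1 libraries were above all control libraries, and siUBE2M replicate 2 lay within the control range. PSMA1 changed by 0.79 ± 0.11 in siNAE1 and 0.51 ± 0.12 in siURM1, and the siURM1 call was lost without siURM1 replicate 2 (0.36). Its siUBE2M value of 0.27 ± 0.11 was called at an adjusted p of 0.046. That call was lost in DESeq2 (adjusted p = 0.087) and without control replicate 1 or 3, siNAE1 replicate 2, or siUBE2M replicate 1 or 3 (0.20 to 0.28). PSMA4 had means of 192 CPM in control, 323 in siNAE1, 258 in siUBE2M and 273 in siURM1, and rose by 0.75 ± 0.06, 0.43 ± 0.06 and 0.51 ± 0.07. PSMA3 and PSMA5 rose in siNAE1 by 0.41 ± 0.07 and 0.23 ± 0.07 and were not called in the other knockdowns. PSMA2 and PSMA6, both with few counts, were not called.

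Of the constitutive beta subunits, PSMB3 rose in every knockdown. Per library, PSMB3 stood at 80.4, 81.9 and 77.2 CPM in control, 105, 113 and 105 in siNAE1, 118, 114 and 130.0 in siUBE2M and 138 and 154 in siURM1. All knockdown libraries were above all control libraries. The log2 fold changes were 0.43 ± 0.07 in siNAE1, 0.60 ± 0.07 in siUBE2M and 0.87 ± 0.07 in siURM1. The siNAE1 and siURM1 values differed by -0.44 ± 0.07 (adjusted p = 1.9e-05).

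PSMB1 rose in every knockdown as well, by 0.35 ± 0.07, 0.22 ± 0.07 and 0.25 ± 0.07, where the siUBE2M call was lost without siUBE2M replicate 3 (0.15) and the siURM1 call without siURM1 replicate 2 (0.20). PSMB2 rose in siNAE1 (0.50 ± 0.07) and siURM1 (0.32 ± 0.07) and was at -0.03 ± 0.07 in siUBE2M, and the siNAE1 and siUBE2M values differed by 0.53 ± 0.07 (adjusted p = 9.6e-08). PSMB4 rose in siNAE1 and siURM1, with a weaker call in the other direction in siUBE2M. In CPM, the PSMB4 values were 251, 275 and 247 for control, 321, 361 and 365 for siNAE1, 225, 222 and 243 for siUBE2M and 295 and 305 for siURM1. It rose in siNAE1 (0.44 ± 0.06) and in siURM1 (0.22 ± 0.07, lost without siURM1 replicate 2 at 0.20), and its siUBE2M value of -0.16 ± 0.06 was called at an adjusted p of 0.032, a call lost without control replicate 1 or 2 or siUBE2M replicate 1 or 2 (-0.18 to -0.11) and in limma (adjusted p = 0.061 and 0.059). The difference between siNAE1 and siUBE2M was 0.60 ± 0.06 (adjusted p = 2.3e-09).

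Among the catalytic subunits, PSMB6, the caspase-like one, rose in siNAE1 by 0.61 ± 0.07 (adjusted p = 7.4e-09). PSMB6 had 120.3, 125 and 122 CPM in the control libraries, 166, 199.8 and 193 in siNAE1, 129, 126 and 145 in siUBE2M and 133 and 138 in siURM1. PSMB7, the trypsin-like subunit, rose in siNAE1 by 0.30 ± 0.07, with libraries apart from the control in siNAE1 and overlapping it in the other groups. The control libraries held 176, 179.8 and 165 CPM of PSMB7, those of siNAE1 190.3, 224 and 228, those of siUBE2M 158, 135 and 169 and those of siURM1 173 and 175. In siUBE2M PSMB7 stood at -0.17 ± 0.07 (adjusted p = 0.052), not called, though it was called lower without a filter on low counts (adjusted p = 0.042), with at least 10 counts in every library (0.034), with 2 groups per fit (0.036), under library totals (-0.23, 0.0069) and without siNAE1 replicate 1 or 3 or siUBE2M replicate 3 (-0.25 to -0.17). PSMB5, the chymotrypsin-like subunit and the main target of proteasome inhibitors, was not called in the knockdowns against the control. Per library, PSMB5 stood at 153, 156 and 145 CPM in control, 154, 170.3 and 179 in siNAE1, 142, 148 and 156 in siUBE2M and 163 and 164 in siURM1. Its log2 fold changes were 0.15 ± 0.06, -0.02 ± 0.06 and 0.11 ± 0.07, with adjusted p values of 0.052, 0.79 and 0.23. In siNAE1 it was called higher without siNAE1 replicate 1 (0.21, adjusted p = 0.012 in edgeR) or siUBE2M replicate 3 (0.15, 0.041).

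The immunoproteasome genes had too few counts to be read closely. PSMB9 had 4, 3 and 1 counts in the control libraries, 5, 1 and 0 in siNAE1, 11, 8 and 7 in siUBE2M and 9 and 10 in siURM1. The siUBE2M and siURM1 libraries were above all control libraries. PSMB9 passed the filter on low counts through these libraries, so the fitted log2 values of 1.83 ± 0.73 in siUBE2M and 1.88 ± 0.78 in siURM1 are given as descriptions without a test, and with 2 groups per fit or without siUBE2M replicate 1 the gene was not tested in siUBE2M against the control. PSMB10 had 8, 7 and 28 counts in control, 22, 26 and 10 in siNAE1, 13, 11 and 30 in siUBE2M and 17 and 5 in siURM1, overlapped in all groups and was not called, except in siNAE1 without control replicate 3 (1.68, edgeR adjusted p = 0.019). PSMB8 had 0, 0 and 2 counts in control, 0, 0 and 1 in siNAE1, 0, 0 and 2 in siUBE2M and 1 and 2 in siURM1.

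**Figure D3:**
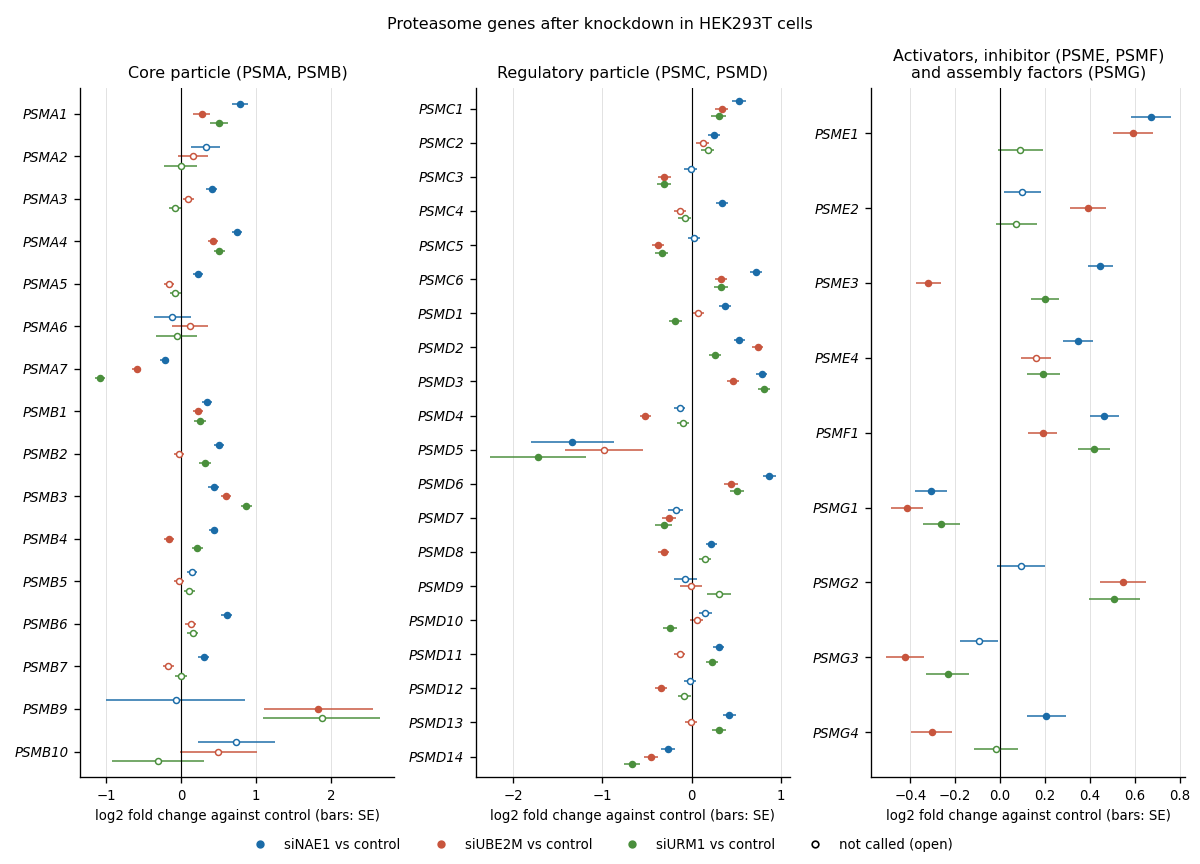
Log2 fold change against the control, with its standard error as a bar, for the 45 tested genes in siNAE1, siUBE2M and siURM1 (filled points: called at an adjusted p under 0.05; open points: not called), in 3 panels by class with their own axes. PSMA7, PSMD14 and PSMG1 lie left of 0 and PSMA4, PSMB3, PSMD3 and PSMD6 right of 0 in all knockdowns, and the bars of PSMB9, PSMB10 and PSMD5 are the longest.

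The 6 ATPases of the base were divided by gene. In siNAE1, 4 of 6 rose, where 27.6% of all genes were called higher. PSMC6 rose most, by 0.72 ± 0.07, and was also up in siUBE2M (0.33 ± 0.07) and siURM1 (0.33 ± 0.08). PSMC1 rose by 0.53 ± 0.08, 0.33 ± 0.08 and 0.30 ± 0.08, the last lost without siURM1 replicate 1 (0.26), but 76.1% of its annotated exon bases lie opposite the gene NRDE2 on the other strand, so its value rests on how strand was used in counting. The libraries were made strand-specific with dUTP, and the strand option of the counting is not given in the sources used here. PSMC2 and PSMC4 rose in siNAE1, by 0.24 ± 0.07 and 0.33 ± 0.07, and were not called in the other knockdowns.

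PSMC3 and PSMC5 did the reverse. They stood at -0.01 ± 0.07 and 0.03 ± 0.07 in siNAE1, not called, and fell by 0.31 ± 0.07 and 0.38 ± 0.07 on the log2 scale in siUBE2M and by 0.31 ± 0.08 and 0.34 ± 0.08 in siURM1. Both were higher in siNAE1 than in siUBE2M and siURM1 (0.30 ± 0.07 and 0.30 ± 0.08 for PSMC3, 0.41 ± 0.07 and 0.36 ± 0.08 for PSMC5), where the PSMC3 call against siURM1 was lost without siURM1 replicate 2 (0.26). Of the PSMC5 exon bases, 15.3% lie opposite FTSJ3, so its value is open to the same limit as that of PSMC1. Between siUBE2M and siURM1 the 6 ATPase genes had log2 differences from -0.06 to 0.03.

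The scaffold and receptor subunits of the base each took their own course. PSMD2, a docking site for shuttle receptors and for USP14, rose in every knockdown and most in siUBE2M. In CPM, the PSMD2 values were 135, 147 and 159 for control, 211, 215 and 212 for siNAE1, 245, 239 and 251 for siUBE2M and 178 and 174 for siURM1. The siUBE2M libraries were above those of every other group. The log2 fold changes were 0.53 ± 0.06, 0.74 ± 0.06 and 0.26 ± 0.07, and siUBE2M exceeded siURM1 by 0.48 ± 0.07 (adjusted p = 1.7e-06). PSMD1, its partner scaffold, rose in siNAE1 by 0.37 ± 0.06 and was at -0.19 ± 0.07 in siURM1, called at an adjusted p of 0.037 and lost without any 1 control or siURM1 library or siUBE2M replicate 1 or 2 (-0.20 to -0.14) and without a filter on low counts (adjusted p = 0.092). PSMD4 fell in siUBE2M. PSMD4 had 289.8, 310.0 and 284 CPM in the control libraries, 252, 275 and 279.6 in siNAE1, 203, 194 and 218 in siUBE2M and 281 and 270.3 in siURM1. It stood at -0.52 ± 0.06 there, below siNAE1 (difference 0.39 ± 0.06) and below siURM1 (-0.43 ± 0.07), and at -0.13 ± 0.06 and -0.10 ± 0.07 in siNAE1 and siURM1, not called. In siNAE1 it was called lower in DESeq2 (-0.14, adjusted p = 0.049), with 2 groups per fit (0.031), with at least 10 counts in every library (0.02), without siNAE1 replicate 3 or siUBE2M replicate 3 (-0.16 and -0.13) and under library totals (-0.26, 0.00026), which also called it in siURM1 (-0.19, 0.016).

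The lid held genes that moved in both directions. In siNAE1, 5 of its 8 genes rose and 1 fell, in siUBE2M 2 rose and 4 fell, and in siURM1 4 rose and 2 fell. Over all genes 27.6% were called higher and 27.1% lower in siNAE1, 22.7% and 22.6% in siUBE2M and 20.8% in each direction in siURM1, so that 2 of 8 is about the background. PSMD3, a scaffold subunit of the lid, rose in every knockdown. The control libraries held 122, 122 and 111 CPM of PSMD3, those of siNAE1 195, 207 and 208, those of siUBE2M 153, 167 and 168 and those of siURM1 209.9 and 204. All knockdown libraries were above all control libraries, with siUBE2M between the control and the others. Its log2 fold changes were 0.78 ± 0.06 in siNAE1, 0.46 ± 0.06 in siUBE2M and 0.81 ± 0.07 in siURM1 (adjusted p = 3.5e-12, 3.4e-07 and 3.4e-11). siNAE1 and siURM1 were not told apart, at a difference of -0.03 ± 0.07, and each exceeded siUBE2M.

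PSMD6, another scaffold subunit, had the highest value among all 45 genes in siNAE1, at 0.86 ± 0.07 (adjusted p = 1.1e-11). Per library, PSMD6 stood at 91.9, 108 and 96.5 CPM in control, 165, 194 and 181 in siNAE1, 126, 130.4 and 146 in siUBE2M and 143 and 139 in siURM1. Its knockdown libraries were all above the control. In siUBE2M and siURM1 it rose by 0.44 ± 0.07 and 0.51 ± 0.08. PSMD11 and PSMD13 rose in siNAE1 (0.30 ± 0.06 and 0.42 ± 0.07) and siURM1 (0.23 ± 0.07 and 0.31 ± 0.08), with the PSMD11 call in siURM1 lost without siURM1 replicate 2 (0.21), and stood at -0.14 ± 0.06 and -0.01 ± 0.07 in siUBE2M, not called.

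PSMD14, the metalloprotease that removes ubiquitin chains at the entrance of the core, fell in every knockdown. In CPM, the PSMD14 values were 124, 142 and 128 for control, 104, 117 and 108 for siNAE1, 97.9, 85.6 and 105 for siUBE2M and 74.9 and 91.3 for siURM1. All knockdown libraries were below all control libraries, and those of siUBE2M overlapped both other knockdowns. It fell by 0.27 ± 0.08 in siNAE1, 0.45 ± 0.08 in siUBE2M and 0.66 ± 0.09 in siURM1 on the log2 scale (adjusted p = 0.0047, 1.7e-05 and 3.6e-07). PSMD7, with which it forms the enzymatic pair of the lid, fell by 0.25 ± 0.08 in siUBE2M (lost without control replicate 3, at -0.19) and 0.32 ± 0.09 in siURM1 (lost without siURM1 replicate 2, at -0.19), and was at -0.18 ± 0.08 in siNAE1, not called. Of its exon bases, 31.2% lie opposite another annotated gene. PSMD12 fell in siUBE2M by 0.34 ± 0.07. PSMD8 was called in both directions, at 0.22 ± 0.06 in siNAE1 and -0.32 ± 0.06 in siUBE2M, a difference of 0.53 ± 0.06 (adjusted p = 3.1e-08).

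Of the chaperones that assemble the base, PSMD5 passed the fold threshold on few counts. It had 29, 17 and 28 counts in control, 10, 8 and 5 in siNAE1, 10, 11 and 12 in siUBE2M and 10 and 4 in siURM1. All knockdown libraries were below all control libraries. The fitted log2 fold changes were -1.34 ± 0.46 in siNAE1 (adjusted p = 0.015), -0.98 ± 0.44 in siUBE2M (0.068, not called, but called with 2 groups per fit at 0.035, in limma, and without control replicate 2 at -1.18) and -1.72 ± 0.54 in siURM1 (0.01, lost without siURM1 replicate 2 at -1.27), and the losses without single libraries in siNAE1 are given above. PSMD10, known as gankyrin, stood at -0.25 ± 0.08 in siURM1, a call lost without control replicate 2 or either siURM1 library (-0.25 to -0.20), and PSMD9 was not called against the control.

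**Figure D4:**
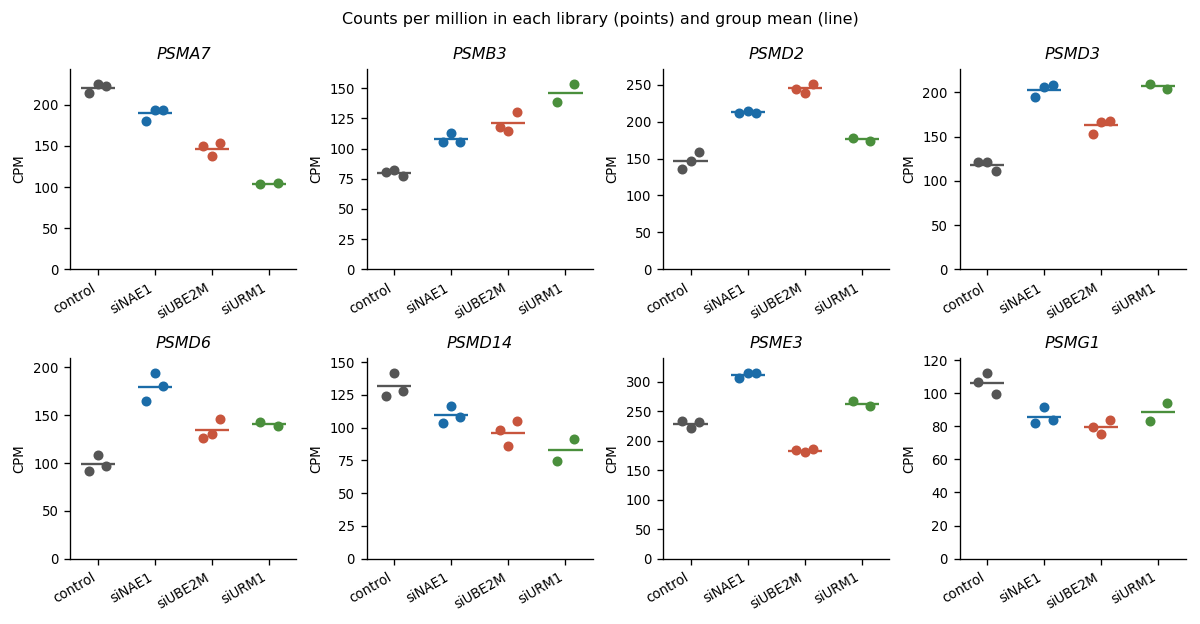
CPM in each library (points) and the mean of each group (line) for 8 proteasome genes, each axis starting at 0. PSMA7, PSMD14 and PSMG1 have all knockdown libraries below the control, PSMB3, PSMD2, PSMD3 and PSMD6 have all of them above it, and PSME3 is above the control in siNAE1 and siURM1 and below it in siUBE2M.

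Among the alternative caps of the core, PSME3, the nuclear activator PA28 gamma, was higher in siNAE1 and lower in siUBE2M than in the control. PSME3 had 234, 221 and 232 CPM in the control libraries, 307, 315 and 315 in siNAE1, 184, 181 and 186 in siUBE2M and 268 and 258 in siURM1. No group overlapped another. The log2 fold changes were 0.45 ± 0.06 in siNAE1 (adjusted p = 4e-08), -0.32 ± 0.06 in siUBE2M (2.1e-05) and 0.20 ± 0.06 in siURM1 (0.0096, lost without siURM1 replicate 1 at 0.18). siNAE1 exceeded siUBE2M by 0.77 ± 0.06 (adjusted p = 1.4e-12).

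PSME1 and PSME2 encode the subunits of the interferon-induced activator PA28 alpha-beta and lie as neighbors on chromosome 14. The control libraries held 28.4, 36.0 and 30.9 CPM of PSME1, those of siNAE1 48.2, 51.0 and 52.8, those of siUBE2M 47.7, 44.9 and 51.0 and those of siURM1 32.0 and 35.7. PSME1 rose in siNAE1 (0.67 ± 0.09) and siUBE2M (0.59 ± 0.09), whose libraries were above all others, and stood at 0.09 ± 0.10 in siURM1, not called. Per library, PSME2 stood at 45.6, 46.0 and 39.9 CPM in control, 48.2, 49.0 and 43.4 in siNAE1, 59.9, 53.4 and 59.2 in siUBE2M and 45.9 and 46.3 in siURM1. PSME2 rose in siUBE2M (0.39 ± 0.08, adjusted p = 0.00017), where it was called above siNAE1 and siURM1 as well, the latter lost without siURM1 replicate 1 (0.31). In CPM, the PSME4 values were 99.6, 98.1 and 111 for control, 131, 137 and 125 for siNAE1, 119.5, 116 and 109 for siUBE2M and 118 and 117 for siURM1. PSME4, the activator PA200, rose in siNAE1 by 0.35 ± 0.07. In siURM1 it stood at 0.19 ± 0.07 with an adjusted p of 0.036, lost without control replicate 1 or 2 or either siURM1 library (0.17 to 0.20), without a filter on low counts (adjusted p = 0.056) and in limma (0.053). In siUBE2M it stood at 0.16 ± 0.07, not called, but was called higher without control replicate 3 or siUBE2M replicate 3 (0.22 and 0.19).

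PSMF1, which encodes the inhibitor PI31, rose in every knockdown. PSMF1 had 95.3, 104 and 95.8 CPM in the control libraries, 138, 135 and 134 in siNAE1, 110.1, 107 and 119.5 in siUBE2M and 131 and 132 in siURM1. All knockdown libraries were above all control libraries. Its log2 fold changes were 0.46 ± 0.06 in siNAE1, 0.19 ± 0.06 in siUBE2M and 0.42 ± 0.07 in siURM1, and the siUBE2M call was lost without control replicate 1 or 3 or siUBE2M replicate 3 (0.14 to 0.18).

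Among the assembly factors, PSMG1 and PSMG2 bind each other and guide the alpha ring, and their genes moved apart. The control libraries held 107, 112 and 99.95 CPM of PSMG1, those of siNAE1 82.0, 91.7 and 84.0, those of siUBE2M 79.8, 75.6 and 84.0 and those of siURM1 83.3 and 94.3. PSMG1 fell in every knockdown, by 0.31 ± 0.07, 0.42 ± 0.07 and 0.26 ± 0.08 on the log2 scale, with no overlap with the control, and the siURM1 call was lost without control replicate 2 or siURM1 replicate 1 (-0.21 to -0.17). Per library, PSMG2 stood at 21.9, 26.8 and 24.0 CPM in control, 23.3, 27.4 and 26.9 in siNAE1, 35.1, 32.3 and 38.9 in siUBE2M and 31.2 and 37.9 in siURM1. PSMG2 rose in siUBE2M (0.55 ± 0.10) and siURM1 (0.51 ± 0.11), above every control and siNAE1 library, and stood at 0.09 ± 0.11 in siNAE1, not called.

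PSMG3 and PSMG4 form the other pair. In CPM, the PSMG3 values were 81.6, 95.6 and 85.4 for control, 71.2, 88.2 and 86.7 for siNAE1, 60.0, 62.3 and 73.3 for siUBE2M and 69.8 and 79.1 for siURM1. PSMG3 fell in siUBE2M (-0.42 ± 0.09) and was called at an adjusted p of 0.049 in siURM1 (-0.23 ± 0.10), lost in DESeq2 (adjusted p = 0.082), with RLE scaling (0.052), in limma (0.14) and without control replicate 2 or 3, siNAE1 replicate 2, siUBE2M replicate 1 or 2 or siURM1 replicate 1 (-0.24 to -0.14). In siNAE1 PSMG3 was not called, but it was called lower under library totals (-0.22, edgeR adjusted p = 0.026). PSMG4 had 40.2, 36.2 and 37.6 CPM in the control libraries, 43.5, 41.0 and 47.3 in siNAE1, 31.2, 27.4 and 33.7 in siUBE2M and 38.8 and 36.4 in siURM1. PSMG4 fell in siUBE2M (-0.31 ± 0.09, lost without siUBE2M replicate 2 at -0.21), below the libraries of all other groups, and was called higher in siNAE1 at 0.21 ± 0.09 (adjusted p = 0.048). Of PSMG4 exon bases, 13.3% lie opposite SLC22A23.

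Compared with each other, siNAE1 stood above both other knockdowns for this set. Between siNAE1 and siUBE2M, 28 of 45 genes were higher in siNAE1 and 5 lower, where 22.7% and 21.6% of all genes were, and 1 passed the fold threshold (7.84% of all genes), which was PSMB9 and is not read as a result for the same reason, with a median difference of 0.30. PSMB9 is 1 of the 5 lower genes. Without siUBE2M replicate 1, siNAE1 replicate 3 or either siURM1 library, 3 were lower, with PSMB9 among the calls no longer made or not tested. Between siNAE1 and siURM1, 19 were higher in siNAE1 and 3 lower, where 19.5% and 19.1% of all genes were, and 0 of 45 passed the fold threshold in edgeR and 0 in DESeq2 (6.76% of all genes in edgeR), with 1 at an unadjusted p under 0.05 and a median of 0.22. The 3 lower genes were PSMB3, PSMD9 and PSMG2, of which 1 remained called lower without siURM1 replicate 2. Between siUBE2M and siURM1, 6 were higher in siUBE2M and 12 lower, where 16.7% and 18.3% of all genes were, 0 passed the fold threshold in edgeR, also at an unadjusted p under 0.05, and 0 in DESeq2 (5.41% of all genes in edgeR), and the median was -0.05. Of the 8 lid genes, 5 were lower in siUBE2M than in siURM1, where that of PSMD12 was lost without siURM1 replicate 2.

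Genes that work with the proteasome but do not carry its gene names were counted from a list of 26, all tested. In siNAE1, 14 rose and 11 fell (median 0.23), in siUBE2M 4 rose and 12 fell (median -0.11), and in siURM1 8 rose and 9 fell (median 0.00). Over all genes 27.6% were called higher and 27.1% lower in siNAE1, 22.7% and 22.6% in siUBE2M and 20.8% in each direction in siURM1. POMP, the maturation factor of the core, rose in every knockdown. The control libraries held 70.9, 76.7 and 69.2 CPM of POMP, those of siNAE1 122, 137 and 136, those of siUBE2M 89.9, 80.6 and 101 and those of siURM1 107 and 114. Its libraries were above the control throughout, with log2 fold changes of 0.87 ± 0.08, 0.32 ± 0.08 and 0.62 ± 0.08. SEM1, a small lid subunit with a name of its own, rose by 0.90 ± 0.09, 0.73 ± 0.09 and 0.93 ± 0.10. VCP, the segregase that extracts ubiquitinated proteins, rose by 0.83 ± 0.06, 0.32 ± 0.06 and 0.42 ± 0.06, and its cofactor UFD1 by 0.37 ± 0.07, 0.30 ± 0.07 and 0.20 ± 0.08, the last lost without control replicate 1 or 3 or either siURM1 library (0.19 to 0.22).

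The deubiquitinases that sit on the regulatory particle fell. USP14 had log2 fold changes of -0.40 ± 0.07, -0.48 ± 0.07 and -0.49 ± 0.08, and UCHL5 of -0.27 ± 0.06, -0.40 ± 0.06 and -0.58 ± 0.07. ADRM1, the receptor to which UCHL5 binds, was higher in siNAE1 (0.29 ± 0.08) and lower in siUBE2M (-0.29 ± 0.08, lost without control replicate 1 or siUBE2M replicate 1 at -0.21 to -0.20). In siURM1 ADRM1 stood at -0.25 ± 0.09, a call lost without control replicate 1 or 2 or either siURM1 library (-0.27 to -0.17). Under library totals its siNAE1 call was lost (0.17, adjusted p = 0.074), as were the siURM1 calls of UFD1 and UBQLN2. UBE3C, a ubiquitin ligase of the proteasome, rose in siNAE1 (0.86 ± 0.06) and fell in siURM1 (-0.27 ± 0.07), a difference of 1.13 ± 0.07 (adjusted p = 1.2e-14). Shuttle receptors differed too, with RAD23B at -0.27 ± 0.06, -0.84 ± 0.06 and -0.47 ± 0.07, and UBQLN2 at 0.35 ± 0.08 in siNAE1, -0.63 ± 0.08 in siUBE2M and 0.23 ± 0.08 in siURM1, the last lost without control replicate 1 or siURM1 replicate 2 (0.18 to 0.20).

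The transcript of NFE2L1, the factor named above, stood at -0.08 ± 0.06 and -0.11 ± 0.06 in siNAE1 and siUBE2M, not called, and at 0.17 ± 0.07 in siURM1, called at an adjusted p of 0.044 and lost without control replicate 1 or 2 or siURM1 replicate 1 (0.07 to 0.18). The NFE2L1 call was also lost under library totals (0.08, edgeR adjusted p = 0.36), with at least 10 counts in every library (0.066) and without a filter on low counts (0.071). Of the proteins that process it, the protease DDI2 rose in siNAE1 (0.45 ± 0.07) and the deglycosylase NGLY1 fell there (-0.67 ± 0.08). NGLY1 was also called lower in siUBE2M (-0.23 ± 0.08), a call lost without control replicate 3 or siUBE2M replicate 1 or 2 (-0.22 to -0.18). NFE2L2 fell in siNAE1 (-0.30 ± 0.08). AKIRIN2, which imports proteasomes into the nucleus, fell by 0.20 ± 0.07, 0.52 ± 0.07 and 0.39 ± 0.07 on the log2 scale, with the siNAE1 call lost without siNAE1 replicate 1 (-0.17).

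**Figure D5:**
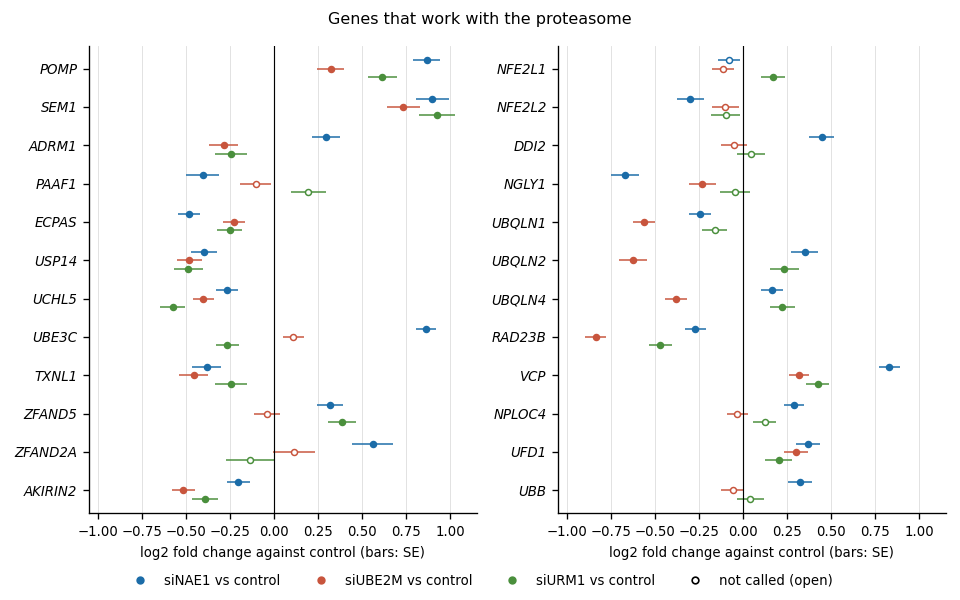
Log2 fold change against the control, with its standard error as a bar, for genes of the list that work with the proteasome (filled points: called; open points: not called). POMP, SEM1, VCP and UFD1 lie right of 0 and USP14, UCHL5, RAD23B and AKIRIN2 left of 0 in all knockdowns.

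PSMC3IP, which matched the rule by name, stood at -0.02 ± 0.09, -0.07 ± 0.09 and 0.05 ± 0.09 and was not called. An antisense gene beside the set, PSMG3-AS1, fell by 2.41 ± 0.13, 1.72 ± 0.12 and 1.61 ± 0.14 on the log2 scale, and PSMA3-AS1 fell by 0.89 ± 0.08, 0.37 ± 0.08 and 0.48 ± 0.09. Both were named after their values were seen. PSMG3-AS1 shares 60 exon bases with PSMG3 on the other strand, and without the strand option of the counting, reads there cannot be assigned with certainty.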

How the data were processed

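RNA-seq of 11 HEK293T libraries (control n = 3, siNAE1 n = 3, siUBE2M n = 3, siURM1 n = 2) was used, grouped by the labels. Per the labels and the study's methods, the authors used fastp to trim reads, HISAT2 2.0.5 for alignment to GRCh38 and featureCounts 1.5.0-p3 to count fragments per gene. The counts they deposited are raw whole numbers, and the deposited FPKM divide these by gene length and library size. Libraries were strand-specific (dUTP), and the annotation version and the strand option given to featureCounts are not given in the sources used here.

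Counts were analyzed in R 4.3.3 with edgeR 4.0.16: filterByExpr, TMM scaling and one quasi-likelihood fit with 4 groups over 18368 genes, with Benjamini-Hochberg adjustment over all of them, calls at an adjusted p under 0.05, and a fold threshold of an absolute log2 fold change of 1. The fit was tested on simulated counts for siNAE1 against control over 18368 genes, where it recovered 100 of 100 genes changed by 1 and 97 of 100 changed by 0.5 on the log2 scale, with 19 false calls. The changed genes were drawn from those without low CPM and were far fewer than the genes called in these data. The simulation did not cover genes with few counts, changes under 0.5 or the siURM1 group with n = 2. Alternatives were DESeq2 1.42.0, RLE scaling, other filters on low counts, fits of 2 groups, a replicate block, limma 3.58.1 on log2(FPKM + 1) or log2(FPKM + 0.1), each library left out in turn and, added after seeing the data, library totals without scaling factors. Libraries of a group differed in at least 26105 genes, so each was taken as a separate library. The precision is set by the counts per gene, and values of genes with few counts carry wide standard errors; the floor of 3 counts covers counting error only. Promoters came from a RefSeq table and exon overlaps from GENCODE v44. Summaries used pandas 2.3.3 under Python 3.11.15, and matplotlib 3.10.9 drew the figures.

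The members and lists were chosen with earlier results of these data known. Named with values per library were the 3 highest and 3 lowest members of each knockdown, the catalytic and immunoproteasome subunits, members past the fold threshold, activators, the inhibitor, assembly factors and the 5 highest and 5 lowest by control FPKM, of which PSMA8 and PSMB11 are given as ranges. No column of values was left unused. Some genes of the list that works with the proteasome are counted in its totals and not reported here by name.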

Additional observations from a re-analysis of the deposited data

How the results depend on the processing

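Each call was traced through the other settings, and 0 were called in the opposite direction. Against the control, 25 of 30 calls of siNAE1, 20 of 27 of siUBE2M and 14 of 27 of siURM1 held in every alternative, as did 28 of 33 between siNAE1 and siUBE2M, 14 of 22 between siNAE1 and siURM1 and 12 of 18 between siUBE2M and siURM1. The PSMB9 calls counted here, in siUBE2M and between siNAE1 and siUBE2M, are not read as results. PSMA8, PSMB8 and PSMB11 had at most 3 counts in every library, so differences in these genes were not detectable at this depth.

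Most genes past the fold threshold, PSMB9 and PSMD5, had few counts, and PSMA7 in siURM1 did not. In siUBE2M against the control there were 0 in DESeq2, without a filter, with at least 10 counts in every library, with 2 groups per fit and in limma with either pseudocount. Between siNAE1 and siUBE2M there were 0 in DESeq2, without a filter, with at least 10 counts, with 2 groups per fit and in limma on log2(FPKM + 1). In siNAE1 against the control there were 0 with at least 10 counts and in limma with either pseudocount. In siURM1 there was 1 with at least 10 counts and in limma on log2(FPKM + 1), and between siNAE1 and siURM1 there was 1 in limma on log2(FPKM + 0.1). With at least 10 counts in every library PSMB9 and PSMD5 were not tested, and with 2 groups per fit PSMB9 was not tested in siUBE2M against the control or siNAE1. Without a filter, 3 genes were lower in siNAE1 than in siUBE2M. Scaled by library totals, 7 were lower in siNAE1 than in the control, and the medians were 0.18 in siNAE1 and 0.020 in siURM1. The cause of the other changes was not tested.

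Without 1 library at a time, siNAE1 against the control had 25 to 27 higher, 3 to 6 lower, 0 to 1 past the fold threshold and a median of 0.27 to 0.35. In siUBE2M there were 12 to 14 higher, 11 to 16 lower and 0 to 1 past the threshold, with a median of -0.072 to 0.11. In siURM1 there were 12 to 19 higher, 6 to 10 lower and 1 to 3 past the threshold, with a median of 0.11 to 0.17. Between siNAE1 and siUBE2M there were 25 to 31 higher, 3 to 5 lower and 0 to 1 past the threshold, with a median of 0.26 to 0.34. Between siNAE1 and siURM1 there were 14 to 20 higher, 1 to 3 lower and 0 to 1 past the threshold, with a median of 0.18 to 0.23. Between siUBE2M and siURM1 there were 5 to 7 higher and 9 to 15 lower, with a median of -0.12 to -0.02.

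Some genes that were not called changed sign. Scaled by library totals, PSME2 and PSMG2 stood at -0.026 and -0.032 in siNAE1, and PSMB7 and PSME2 at -0.087 and -0.017 in siURM1. With at least 10 counts in every library PSMB7 was at -0.022 in siURM1. Without 1 library, the log2 fold changes ranged from -1.86 to 0.41 for PSMB9 in siNAE1, -0.15 to 0.00058 for PSMG3 in siNAE1, -0.059 to 0.014 for PSMB5 in siUBE2M, -0.087 to 1.45 for PSMB10 in siUBE2M, -0.021 to 0.041 for PSMB7 in siURM1, -0.061 to 0.035 for PSMG4 in siURM1 and -1.33 to 0.64 for PSMB10 in siURM1.

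The replicate numbers did not pair the libraries: correlations of deviations from the group means were -0.066 to 0.079 over 15 same-numbered pairs and -0.101 to 0.073 over 30 other pairs. With the replicate block, 26 were higher and 4 lower in siNAE1, 14 and 15 in siUBE2M and 19 and 8 in siURM1 against the control, 28 and 4 between siNAE1 and siUBE2M, 18 and 3 between siNAE1 and siURM1 and 6 and 14 between siUBE2M and siURM1. Under the block, PSMG4 was at 0.019 and PSMB10 at 0.061 in siURM1, neither called. The block ended the siURM1 calls of PSMD1 (edgeR adjusted p = 0.067), PSME4 (0.058), PSMG3 (0.069), ADRM1 (0.054), NFE2L1 (0.060) and TXNL1 (0.066), that of PSMB3 between siNAE1 and siUBE2M (0.054) and those of PSMC1 (0.066), AKIRIN2 (0.060) and NPLOC4 (0.065) between siNAE1 and siURM1, and PSMB7 was called lower in siUBE2M (-0.18, 0.044).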
